A study of Mus musculus with 32 samples.

Results

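The urea cycle and the enzymes that feed it with ammonia or take ammonia away were followed through 10 genes, Cps1, Otc, Ass1, Asl, Arg1, Nags, Slc25a15, Glul, Gls2 and Glud1. They were chosen by name for their place in this pathway, with earlier results of these data known, so that counts of members called are not independent support. All 10 were found among the 20076 Ensembl genes of the count table and passed the filter on low counts, which kept 11566 genes. Liver RNA came from male C57BL/6J mice, either wild type (WT) or whole-body knockouts of Acadm (KO), the gene of the fatty-acid oxidation enzyme medium-chain acyl-CoA dehydrogenase (MCAD). The mice had been kept for 6 weeks on a low-fat (LF) or a high-fat (HF) diet and were killed fed or after 16 h of fasting, which gives 8 groups of 4 mice: WT LF fed, WT LF fasted, WT HF fed, WT HF fasted, KO LF fed, KO LF fasted, KO HF fed and KO HF fasted. The mice of a group carry no other allele or agent in the labels, and their ages are listed as 7.5 to 16 with no unit. By the rule for these genes, replicate 2 of WT LF fed and replicate 4 of KO HF fasted were left out, so that these groups hold 3 mice and the series 30.

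The cycle turns toxic ammonia into urea and runs mainly in periportal hepatocytes. In the mitochondrion, NAGS makes the activator that CPS1 requires, CPS1 joins ammonia and bicarbonate to carbamoyl phosphate, and OTC transfers it to ornithine, which the carrier SLC25A15 brings in from the cytosol in exchange for citrulline. In the cytosol, ASS1 and ASL turn citrulline and aspartate into arginine and fumarate, and ARG1 splits arginine into urea and ornithine. GLS2, the liver glutaminase, and GLUD1, glutamate dehydrogenase, release ammonia in the mitochondrion, and GLUL, glutamine synthetase, captures what is left in a thin layer of pericentral hepatocytes. The breakdown of amino acids for glucose synthesis during fasting, and a high protein intake, are textbook conditions under which the cycle carries more nitrogen.

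On GRCm38, Cps1 lies on chromosome 1 (67123026 to 67231259, plus strand), Glul on chromosome 1 (153899944 to 153909723, plus), Ass1 on chromosome 2 (31470207 to 31520672, plus) and Asl on chromosome 5 (130011258 to 130029247, minus). Slc25a15 lies on chromosome 8 (22375551 to 22398597, minus), and chromosome 10 holds Arg1 (24915221 to 24927484, minus) and Gls2 (128194457 to 128210004, plus). Nags lies on chromosome 11 (102145513 to 102149477, plus), Glud1 on chromosome 14 (34310727 to 34345265, plus) and Otc on chromosome X (10252305 to 10321024, plus).

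Otc and Glud1 are the members with a promoter window whose transcripts were lower in fasted mice (below), and their promoters are shown as the 250 bases before the RefSeq start site on GRCm38.p6, on the strand of the gene, chrX:10252055-10252304 for Otc and chr14:34310477-34310726 for Glud1. Those of Glul (chr1:153899679-153899928) and Nags (chr11:102145263-102145512) are set beside them as members that were not called, with motif matches in capitals.
Otc: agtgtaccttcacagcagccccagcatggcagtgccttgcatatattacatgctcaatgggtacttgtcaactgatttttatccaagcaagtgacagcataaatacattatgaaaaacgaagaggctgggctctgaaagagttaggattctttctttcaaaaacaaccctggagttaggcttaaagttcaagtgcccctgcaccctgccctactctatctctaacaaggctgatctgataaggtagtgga
Glud1: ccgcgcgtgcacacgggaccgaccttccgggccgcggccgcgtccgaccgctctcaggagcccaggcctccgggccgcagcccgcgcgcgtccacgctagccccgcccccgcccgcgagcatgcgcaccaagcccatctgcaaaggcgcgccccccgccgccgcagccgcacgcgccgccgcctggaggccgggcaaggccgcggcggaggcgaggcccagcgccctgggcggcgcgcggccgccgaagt
Glul: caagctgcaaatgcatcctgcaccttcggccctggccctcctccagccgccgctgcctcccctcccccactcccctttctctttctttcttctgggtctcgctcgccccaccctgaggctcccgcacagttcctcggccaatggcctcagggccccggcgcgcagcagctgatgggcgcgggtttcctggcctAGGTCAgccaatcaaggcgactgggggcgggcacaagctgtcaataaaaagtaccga
Nags: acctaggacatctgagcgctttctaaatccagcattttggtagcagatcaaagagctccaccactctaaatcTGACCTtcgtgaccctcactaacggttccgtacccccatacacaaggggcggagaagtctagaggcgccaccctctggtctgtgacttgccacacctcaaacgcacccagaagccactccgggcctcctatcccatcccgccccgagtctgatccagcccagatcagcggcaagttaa
Motifs were searched on both strands of windows of 300 bases that reach 50 bases past the start site. The core of the cyclic AMP response element was searched as TGACG, and 20.8% of all 32851 windows held it. A motif like that of C/EBP factors was searched as TTGCNNAA, which 10.8% of windows held. The core bound by the glucocorticoid receptor was searched as AGAACA, which 19.0% of windows held. The element of other nuclear receptors was searched as AGGTCA, which 16.3% of windows held. The TATA box was searched as TATAAA, which 13.6% of windows held. Windows were found for 6 of the 10 members, Glul, Ass1, Slc25a15, Nags, Glud1 and Otc, and not for Cps1, Asl, Arg1 and Gls2. The nuclear receptor element stood once in Glul, at -57 from the start site, and once in Nags, on the other strand at -178 from it. The cyclic AMP core stood once in Nags, 31 bases after the start site and so outside the stretch shown. The Otc, Glud1, Ass1 and Slc25a15 windows held none of the motifs, and no matches overlapped each other. The Otc window had 44.3% G and C and the Glud1 window 81.0%, against a median of 52.7% over all windows.

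Reads of Ass1 can be shared with Gm5424, a processed pseudogene on chromosome 10 (62071123 to 62072362, plus strand). In the 30 mice, Gm5424 had 46 to 311 counts and took 25.2% to 47.6% of the summed counts of the pair, with a median of 34.3%. Values of Ass1 are therefore uncertain. With both counts added, its fasting difference was -0.14 on the log2 scale and its diet difference -0.20, with adjusted p of 0.691 and 0.710 (edgeR), so that neither passed with or without the copy. Pseudogenes like Glul (Glns-ps1, at most 6 counts in a mouse) and Glud1 (Glud-ps, 97.6% identical over 656 bases) exist as well, and Nags shares 445 bases with the antisense gene Gm11586, which had at most 1 count.

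The count table held 2031053 to 4292200 gene counts for each mouse. Levels are given as CPM, the count of a gene scaled to the TMM-adjusted total of its library, which are comparable between mice for one gene and were not compared between genes. Sums over marker lists and values of the mice left out were scaled over all 32 mice, and the other values over the 30. Values from these scalings are set side by side below but are not on exactly the same scale. For Acadm itself, 15 KO mice had counts of 26 to 94 and 15 WT mice of 566 to 2752, with no overlap. A hepatocyte list (11 genes counted) summed to 50475 to 88091 CPM in the 30 mice. Of the mice left out, KO HF fasted replicate 4 had 1028 CPM of these genes and 42739 CPM of 12 heart genes, against at most 375 CPM of heart genes in the 30 mice, and its Cps1 stood at 25.0 CPM and Arg1 at 18.9 CPM. WT LF fed replicate 2 had 236 CPM of Glul, against 1144 to 2092 in the 30 mice, 250.1 CPM of Otc, and 1371 CPM of a pericentral list against at least 3201 in the 30 mice. Among the mice kept, acinar pancreas genes summed to 16921 CPM in WT HF fasted replicate 2 and to 2475 CPM in KO HF fed replicate 1, against at most 54.8 CPM in the other 28. Skeletal muscle genes reached 1124 CPM in that KO HF fed mouse, and adrenal cortex genes at most 169 CPM. The lists of other liver cells ranged from 201 to 583 CPM for macrophages, 378 to 643 CPM for stellate cells, 49.3 to 97.7 CPM for bile duct, 0 to 52.8 CPM for adipose tissue, 2.86 to 20.5 CPM for neutrophils and 464 to 1297 CPM for erythroid cells. Fewer cells of a type and less RNA per cell cannot be told apart in these whole-liver samples.

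**Figure D1:**
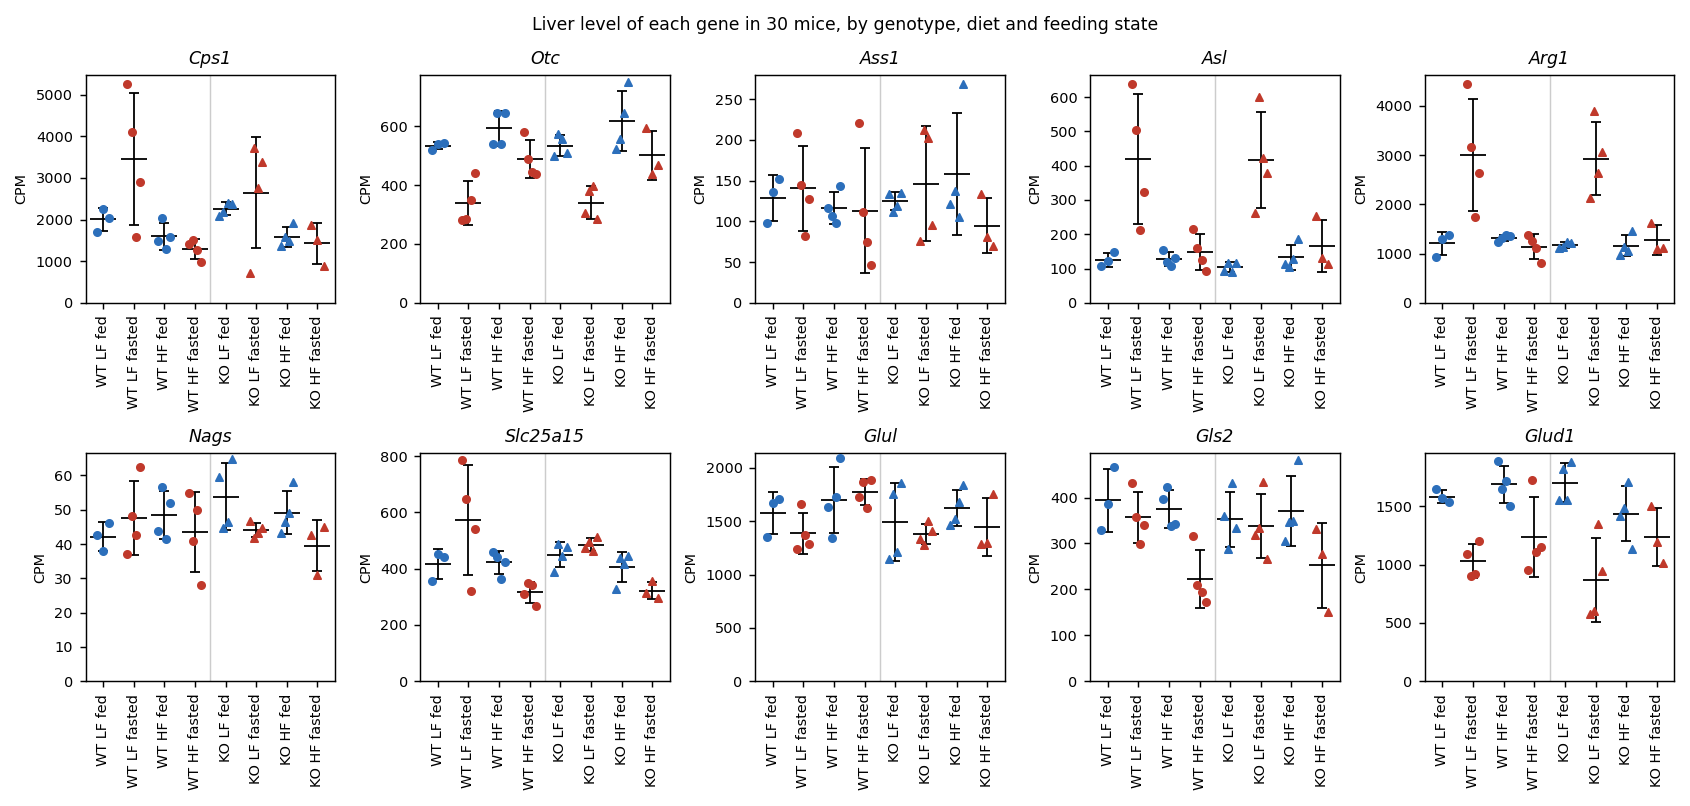
Level of each of the 10 genes (CPM, vertical axis from 0) in 30 mice by group. Circles are WT and triangles KO mice, blue fed and red fasted, and black bars give the group mean and SD. Asl and Arg1 were highest in both LF fasted groups, where Asl averaged 420 and 416 CPM against 105 to 165 CPM in the other 6 groups.

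The question of the comparison of fasted with fed mice is how far the liver shifts these genes after 16 h without food. Averaged over genotype and diet, 5 of the 10 members passed edgeR's quasi-likelihood test at an adjusted p (Benjamini-Hochberg over all genes) below 0.05. The cytosolic enzymes Asl and Arg1 rose, and the mitochondrial enzymes Otc, Glud1 and Gls2 fell. The members called higher were 2 of 10 where 9.77% of all genes tested were called higher, and those called lower were 3 of 10 where 9.14% were called lower. The median log2 difference of the members was -0.10, against -0.0022 over all genes tested.

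Asl, argininosuccinate lyase, had the steepest rise. On the LF diet it stood at 106, 121 and 147 CPM in WT fed mice and at 638, 503, 214 and 323 CPM in WT fasted mice. In KO mice on this diet it stood at 94.5, 117, 89.3 and 118 CPM fed and 263, 600.1, 421 and 378 CPM fasted. Every fasted mouse on the LF diet was above every fed one. On the HF diet the levels were 153, 120.4, 108 and 132 CPM in WT fed and 215, 161, 124 and 94.4 CPM in WT fasted mice, and 113, 105, 127 and 185 CPM in KO fed and 253, 131 and 113 CPM in KO fasted mice, and fed and fasted mice overlapped. The averaged fasting difference of Asl was 1.07 ± 0.16 on the log2 scale (SE, adjusted p = 1.2e-05). It was 1.75 ± 0.34 in WT LF (adjusted p = 0.0012) and 1.99 ± 0.31 in KO LF (adjusted p = 5.9e-05), and 0.21 ± 0.30 in WT HF and 0.32 ± 0.33 in KO HF (adjusted p = 0.908 and 0.954).

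Arg1, arginase, which releases urea, was likewise highest in the LF fasted groups. On the LF diet it stood at 939.8, 1301 and 1385 CPM in WT fed mice and at 4453, 3165, 1748 and 2637 CPM in WT fasted mice, and in KO mice at 1106, 1131, 1233 and 1213 CPM fed and 2139, 3897, 2628 and 3057 CPM fasted. Again no fasted mouse on the LF diet lay within the fed range. On the HF diet it stood at 1242, 1326, 1373 and 1354 CPM in WT fed, 1381, 1262, 1114 and 805 CPM in WT fasted, 972, 1138, 1058 and 1466 CPM in KO fed and 1624, 1091 and 1112 CPM in KO fasted mice, where fed and fasted mice overlapped. The averaged fasting difference was 0.64 ± 0.11 (adjusted p = 2.1e-05), made up of 1.31 ± 0.23 in WT LF and 1.32 ± 0.21 in KO LF (adjusted p = 1.7e-04 and 1.9e-05), and of -0.21 ± 0.21 in WT HF and 0.14 ± 0.22 in KO HF (adjusted p = 0.840 and 0.981).

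Otc, which makes citrulline, moved the other way. On the LF diet it stood at 519.9, 537 and 543 CPM in WT fed and 282, 285, 348 and 442 CPM in WT fasted mice, and at 497, 572, 555 and 509 CPM in KO fed and 304, 378, 396 and 285 CPM in KO fasted mice. All fasted mice on the LF diet were below all fed mice on it. HF mice had 540.1, 643, 541 and 645 CPM in WT fed and 579, 488, 446 and 437 CPM in WT fasted mice, and at 522, 555, 643 and 750.5 CPM in KO fed and 595, 438 and 469 CPM in KO fasted mice, with some overlap. The averaged difference was -0.47 ± 0.08 (adjusted p = 3.5e-05), with -0.65 ± 0.17 in WT LF and -0.65 ± 0.16 in KO LF (adjusted p = 0.010 and 0.0038), and -0.28 ± 0.16 in WT HF and -0.30 ± 0.17 in KO HF (adjusted p = 0.634 and 0.744).

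Glud1, which releases ammonia from glutamate, was also lower in fasted mice. On the LF diet it stood at 1646, 1574 and 1535 CPM in WT fed and 1093, 904, 921 and 1203 CPM in WT fasted mice, and at 1559, 1823, 1559 and 1877 CPM in KO fed and 579, 603, 1349.8 and 946 CPM in KO fasted mice, without overlap in either genotype. HF mice had 1891, 1645, 1719 and 1507 CPM in WT fed and 956, 1731, 1110.0 and 1152 CPM in WT fasted mice, and at 1421, 1489, 1707 and 1136 CPM in KO fed and 1505, 1197 and 1014 CPM in KO fasted mice, with overlap in both. The averaged difference was -0.56 ± 0.10 (adjusted p = 7.1e-05). By group it was -0.97 ± 0.20 in KO LF (adjusted p = 6.6e-04) and -0.62 ± 0.21 in WT LF (adjusted p = 0.069), and -0.45 ± 0.20 in WT HF and -0.22 ± 0.22 in KO HF (adjusted p = 0.456 and 0.949).

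Gls2, which releases ammonia from glutamine, was lower by 0.38 ± 0.11 on average (log2 difference -0.38, adjusted p = 0.0083). Its lowest values were in HF fasted mice, 316, 209, 195 and 173 CPM in WT and 331, 276 and 151 CPM in KO, against 397, 424, 338 and 341 CPM in WT HF fed and 305, 347, 349 and 481 CPM in KO HF fed mice. WT mice on the HF diet did not overlap, whereas KO mice did. On the LF diet it ranged from 330 to 467 CPM in WT fed and from 299 to 432 CPM in WT fasted mice, and from 287 to 431 CPM in KO fed and 267 to 434 CPM in KO fasted mice, so that the groups overlapped widely. The difference was -0.75 ± 0.20 in WT HF (adjusted p = 0.088), -0.55 ± 0.22 in KO HF (adjusted p = 0.441), -0.14 ± 0.22 in WT LF and -0.06 ± 0.20 in KO LF (adjusted p = 0.80 and 0.895).

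The other 5 members did not pass the averaged fasting test, with 95% intervals that leave room for changes in either direction. Cps1, the entry enzyme, differed by 0.14 (-0.23 to 0.51), Ass1 by -0.10 (-0.53 to 0.33), Nags by -0.14 (-0.34 to 0.06), Slc25a15 by -0.05 (-0.23 to 0.14) and Glul by -0.10 (-0.27 to 0.07). For Cps1 the spread among LF fasted mice was wide, with 5257, 4109, 1587 and 2892 CPM in WT and 729, 3717, 2769.7 and 3374 CPM in KO, against 1712, 2262 and 2039 CPM in WT LF fed and 2077, 2192, 2408 and 2364 CPM in KO LF fed mice. In each genotype 3 of the 4 fasted mice were above the fed mice of that genotype and 1 was below them. Ass1, which joins citrulline to aspartate, ranged from 97.8 to 269 CPM over 15 fed mice (median 121) and from 46.6 to 220.2 CPM over 15 fasted mice (median 112). Nags, which makes the activator of CPS1, ranged from 37.9 to 64.8 CPM fed (median 46.3) and from 28.1 to 62.5 CPM fasted (median 43.3). Glul, the pericentral glutamine synthetase, ranged from 1144 to 2092 CPM fed (median 1673) and from 1235 to 1881 CPM fasted (median 1405). For these 3 genes fed and fasted mice overlapped over most of their range.

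In single groups the test called 3 members in WT LF (Asl and Arg1 higher, Otc lower), where 7.54% of all genes were called, and 4 in KO LF (Asl and Arg1 higher, Otc and Glud1 lower), where 13.8% were called. In WT HF and KO HF no member was called, where only 0.424% and 0.527% of all genes were. At an unadjusted p below 0.05, 3 members passed in WT HF (Gls2, Slc25a15 and Glud1, all lower) and 1 in KO HF (Gls2, lower), where 1063 and 871 of the 11566 genes passed, so that the count in KO HF is near the share of all genes. DESeq2 called 1 member in WT HF, Gls2, and 0 in KO HF, and limma voom called 0 in both. As a check on single values, the two-sided exact permutation test of log2 CPM cannot go below 0.0571 for 4 mice against 3 or 0.0286 for 4 against 4. It gave that smallest p for Asl, Arg1, Otc and Glud1 in WT LF and in KO LF, and for Gls2 and Slc25a15 in WT HF. The permutation test was run on the members alone, so the share of all genes that reach this p in the same groups is not known.

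**Figure D2:**
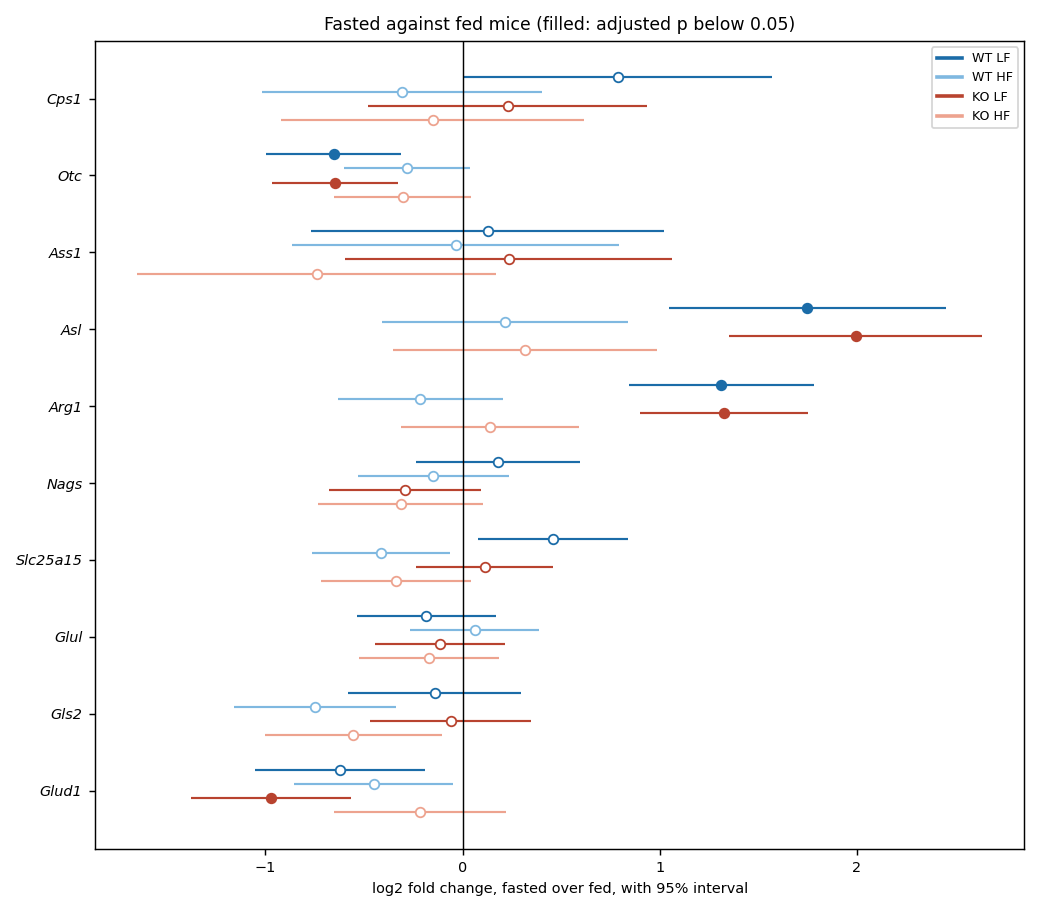
Log2 fold change of fasted over fed mice (horizontal axis, with 95% interval) for the 10 genes, one line for each genotype and diet, from the edgeR model of 30 mice. Filled points passed an adjusted p of 0.05; Asl and Arg1 stood between 1.31 and 1.99 in the LF groups and between -0.21 and 0.32 in the HF groups.

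Whether the fasting response depended on diet was tested directly, as the fasting difference on HF minus that on LF, averaged over genotype. Of the members 3 passed, Asl at -1.60 ± 0.32 (adjusted p = 0.0061), Arg1 at -1.36 ± 0.22 (adjusted p = 2.4e-04) and the ornithine carrier Slc25a15 at -0.66 ± 0.18 (adjusted p = 0.037), all lower on HF. Of all genes tested 1.2% were called lower and 1.26% higher in this test, and the members' median was -0.56 against -0.01 over all genes. The test of Asl and Arg1 held when any single mouse was left out. That of Slc25a15 did not: the adjusted p rose above 0.05 when any 1 of 16 of the 30 mice was left out, up to 0.092, and it was 0.051 with limma voom and 0.072 both with lane as a term and with scaling by library size alone.

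Slc25a15 stood at 355, 454 and 443 CPM in WT LF fed and 786, 647, 322 and 539.6 CPM in WT LF fasted mice, and at 389.6, 489, 444 and 476 CPM in KO LF fed and 473, 494, 464 and 512 CPM in KO LF fasted mice. On the HF diet it stood at 459.6, 441, 365 and 424 CPM in WT fed and 309, 348, 343 and 268 CPM in WT fasted mice, and at 328, 439, 418 and 444 CPM in KO fed and 315, 355 and 296 CPM in KO fasted mice. Fasted WT mice were thus below all fed ones on HF, and 3 of 4 were above all fed ones on LF. The fasting difference was 0.46 ± 0.19 in WT LF, 0.11 ± 0.17 in KO LF, -0.41 ± 0.17 in WT HF and -0.34 ± 0.19 in KO HF, and no single group passed (adjusted p = 0.146, 0.753, 0.411 and 0.736). The other members had differences between diets of -0.74 for Cps1, -0.57 for Ass1, -0.55 for Gls2, -0.18 for Nags, 0.09 for Glul, 0.36 for Otc and 0.46 for Glud1, with adjusted p of 0.197 to 0.896.

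The comparison of diets asks how 6 weeks of high-fat feeding shifted the same genes. Averaged over genotype and feeding state, 4 members were lower on HF, Cps1, Asl, Arg1 and Slc25a15, where 1.24% of all genes were called lower, and 1, Otc, was higher, where 2.26% were called higher. Cps1 differed by -0.79 ± 0.18 (adjusted p = 0.013), Arg1 by -0.62 ± 0.11 (adjusted p = 4.0e-04), Asl by -0.61 ± 0.16 (adjusted p = 0.028), Slc25a15 by -0.39 ± 0.09 (adjusted p = 0.0079) and Otc by 0.36 ± 0.08 (adjusted p = 0.0078). Gls2 was at -0.27 ± 0.11 (adjusted p = 0.159), and Glul at 0.16, Glud1 at 0.16, Nags at -0.05 and Ass1 at -0.18 did not pass either (adjusted p = 0.345 to 0.864). The call of Asl was lost, with an adjusted p of up to 0.066, without KO HF fasted replicate 2, KO HF fasted replicate 3 or WT LF fed replicate 4.

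Within feeding states, members passed the diet test among fasted mice alone. Among fasted WT mice Cps1 fell from 3461 ± 1579 CPM (SD, n = 4) on LF to 1296 ± 230 CPM (n = 4) on HF without overlap, a log2 difference of -1.42 ± 0.35 (adjusted p = 0.045). In the same mice Arg1 differed by -1.40 ± 0.21, Asl by -1.5 ± 0.31 and Slc25a15 by -0.86 ± 0.17 (adjusted p = 1.6e-04, 0.0088 and 0.0053). Arg1 did not overlap between the diets either, whereas Asl and Slc25a15 did. Among fasted KO mice Arg1 differed by -1.20 ± 0.23 and Asl by -1.33 ± 0.34 (adjusted p = 0.0030 and 0.038), while Cps1 at -0.89 ± 0.38, Slc25a15 at -0.59 ± 0.19 and Otc at 0.56 ± 0.17 did not pass (adjusted p = 0.299, 0.106 and 0.087). Of these genes, Cps1 overlapped between the diets in KO mice, and Arg1, Asl, Slc25a15 and Otc did not. The calls were 4 of 10 members where 1.12% of all genes were called in WT, and 2 of 10 where 1.68% were called in KO. They were the least stable counts of the series: without WT LF fasted replicate 1 the WT count fell to 1, and without 1 of 5 mice (KO HF fasted replicate 2 or 3, KO LF fasted replicate 2 or 4, WT LF fed replicate 3) the KO count fell to 1.

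Among fed mice no member was called in either genotype by edgeR, DESeq2 or limma voom, and 0 passed at an unadjusted p below 0.05, where 604 of 11566 genes passed in WT and 840 in KO. The share of all genes called after adjustment was 0.0778% in WT and 0.00865% in KO. The fed log2 differences of the members ranged from -0.32 (Cps1) to 0.20 (Nags) in WT and from -0.51 (Cps1) to 0.35 (Ass1) in KO. For Cps1 in KO fed mice, 2077, 2192, 2408 and 2364 CPM on LF and 1365, 1586, 1478 and 1917 CPM on HF did not overlap (two-sided exact permutation p = 0.0286, adjusted p = 0.817 in edgeR). The diet and the fasting comparisons share the LF fasted mice, so that the values of Asl and Arg1 in both rest in part on the same 8 mice.

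**Figure D3:**
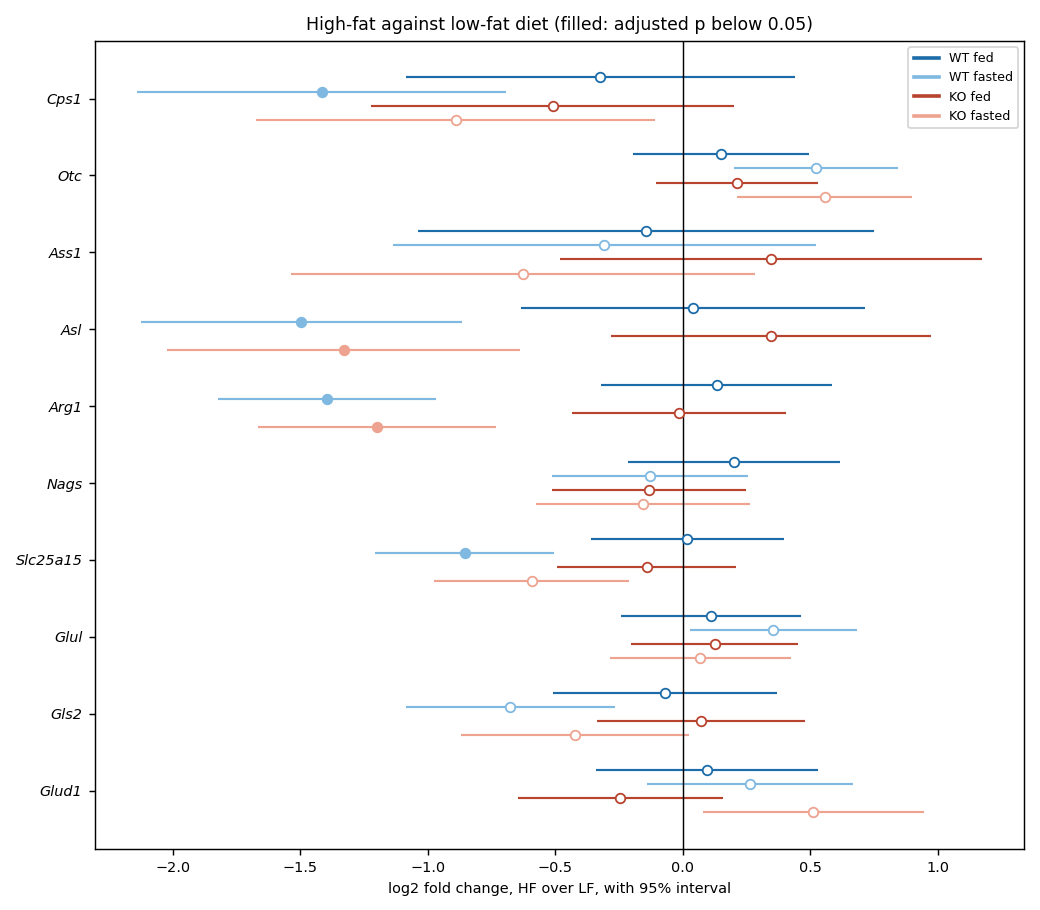
Log2 fold change of HF over LF mice (horizontal axis, with 95% interval) for the 10 genes, one line for each genotype and feeding state, from the edgeR model of 30 mice. Filled points passed an adjusted p of 0.05; all of them belong to fasted mice and lie between -1.5 and -0.86.

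In each of the 8 groups 1 mouse was lowest for 4 or more of the 6 genes Cps1, Ass1, Asl, Arg1, Slc25a15 and Otc. In WT LF fed (replicate 1) and WT HF fasted (replicate 4) this was 6 of 6. Nags, also a gene of the cycle, is not among the 6. For it the same mouse was lowest in WT HF fed, WT HF fasted and KO HF fed, and in no other group. In KO LF fasted, that mouse (replicate 1) was the highest for Nags, at 46.8 CPM against 41.7, 43.3 and 44.6 CPM. In WT LF fasted, replicate 3 was the lowest of 4 for Cps1, Ass1, Asl, Arg1 and Slc25a15, and in KO LF fasted, replicate 1 was the lowest for Cps1, Ass1, Asl and Arg1. That KO mouse had 729 CPM of Cps1 against 2770 to 3717 CPM in its group. Its periportal list summed to 5694 CPM against 12602 to 16764 in the group, and its pericentral list to 3201 CPM against 6170 to 8041. The part of these mice in the spread was not tested. The periportal list (10 of 10 genes counted), which holds no member but shares Sds and Hal with the partner genes below, ranged from 5081 to 7350 CPM in LF fed, 5694 to 18702 in LF fasted, 5009 to 10514 in HF fed and 6535 to 15550 in HF fasted mice. The pericentral list (10 of 11 genes counted), which shares Oat and Slc1a2 with them, ranged from 3533 to 5674 CPM in LF fed, 3201 to 8041 in LF fasted, 4906 to 6864 in HF fed and 6400 to 10198 in HF fasted mice. The genes within a list went different ways with fasting. Of the periportal genes 2 of 10 were called higher (Pck1 at 1.56 and Hsd17b13 at 0.63) and 2 lower (Cdh1 at -1.18 and Aldh1b1 at -0.55), and of the pericentral genes 4 of 10 were called higher (Cyp2e1 at 0.93, Oat, Tbx3 and Slc1a2) and 4 lower (Rgn at -0.91, Lect2, Cyp1a2 and Cyp2c29), so that the sums do not stand for their lists as a whole. Their part in the results for the members was not tested.

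The comparison of KO with WT mice asks whether loss of MCAD altered these genes. No member was called, averaged or in any of the 4 conditions, by edgeR, DESeq2 or limma voom, and 0 members passed at an unadjusted p below 0.05, where 335 of 11566 genes passed averaged and 288 to 684 in single conditions. Of all genes tested 0.00865% was called, averaged and in each condition, which is Acadm itself. The averaged log2 differences lay between -0.11 for Glul and 0.05 for Ass1. The 95% interval of Arg1 was -0.25 to 0.19, of Asl -0.34 to 0.31, of Otc -0.14 to 0.19, of Slc25a15 -0.22 to 0.14, of Glul -0.28 to 0.06, of Gls2 -0.23 to 0.19, of Glud1 -0.30 to 0.12 and of Nags -0.17 to 0.23. It was wider for Cps1 (-0.39 to 0.35) and Ass1 (-0.38 to 0.48). These intervals cover changes of that size, so that equal expression is not shown.

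In single conditions the largest differences were 0.44 for Ass1 in HF fed mice (-0.39 to 1.27) and -0.39 for Cps1 in LF fasted mice (-1.10 to 0.32). The fasting response of KO minus that of WT ranged over the members from -0.32 for Nags to 0.18 for Arg1, and the diet response of KO minus that of WT from -0.18 for Nags to 0.24 for Asl. In both tests 0 members and 0% of all genes were called by edgeR, with 0 members at an unadjusted p below 0.05 (573 and 397 of 11566 genes passed), and 0 members by DESeq2 or limma voom. The fasting difference of Glud1 passed in KO LF and not in WT LF, and the difference between genotypes within the LF diet was not tested.

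**Figure D4:**
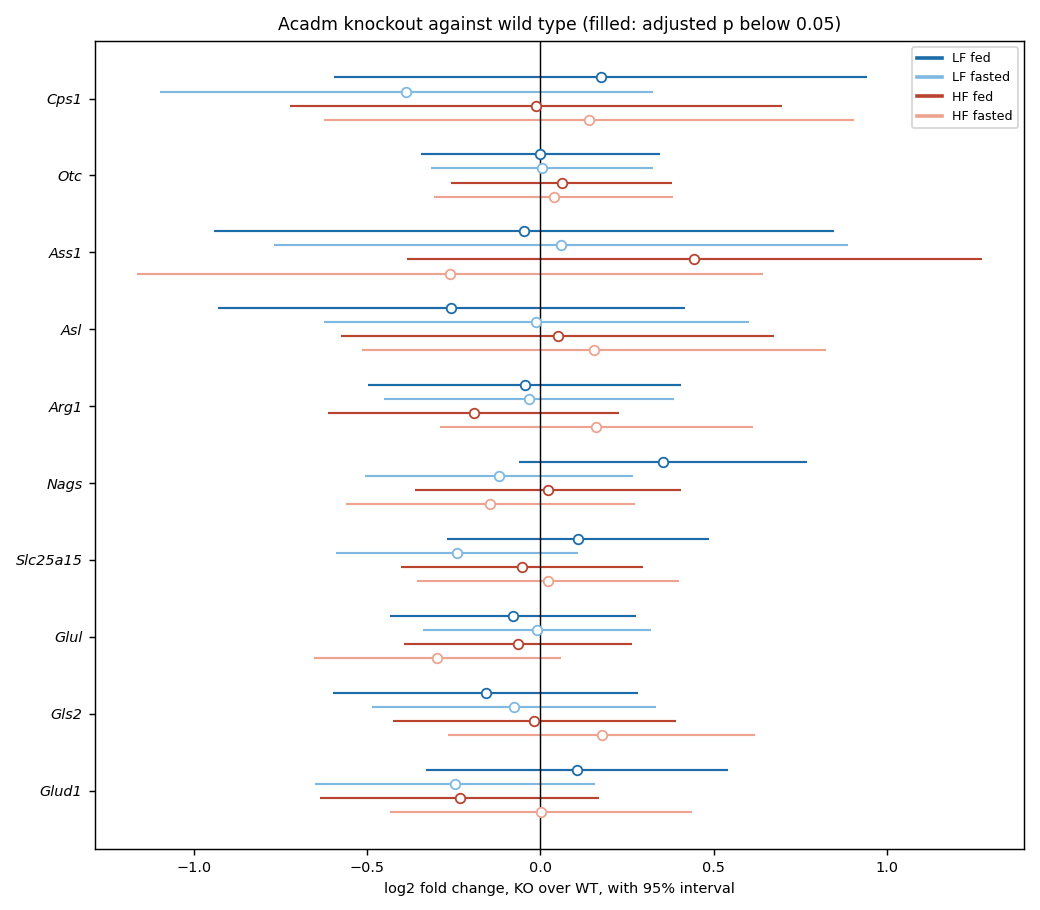
Log2 fold change of KO over WT mice (horizontal axis, with 95% interval) for the 10 genes, one line for each diet and feeding state, from the edgeR model of 30 mice. All points are open, since none passed an adjusted p of 0.05, and they lie between -0.39 and 0.44.

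A list of 31 partner genes of nitrogen handling (aminotransferases, mitochondrial and plasma membrane carriers, enzymes of glutamine, proline and glycine breakdown) gave context, of which 23 passed the filter. With fasting 7 rose and 4 fell, where 9.77% of all genes were called higher and 9.14% lower, with a median log2 difference of 0.17 against -0.0022 over all genes. Slc25a22, a mitochondrial glutamate carrier, rose by 1.18 ± 0.20, Gpt2, the mitochondrial alanine aminotransferase, by 0.97 ± 0.10, Oat, ornithine aminotransferase, by 0.90 ± 0.19, and Slc1a2, a glutamate transporter of pericentral hepatocytes, by 0.67 ± 0.08 (adjusted p = 8.8e-05, 6.0e-10, 0.0010 and 7.4e-08). Car5a, the mitochondrial carbonic anhydrase that supplies bicarbonate to CPS1, was at -0.53 ± 0.12, Aldh4a1 of proline breakdown at -0.47 ± 0.08, the glutamine transporter Slc38a3 at -0.27 ± 0.08 and Gcsh of the glycine cleavage system at -0.26 ± 0.09, all passing (adjusted p = 9.8e-04, 3.6e-05, 0.016 and 0.026).

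With the HF diet 1 partner was higher, Car5a at 0.70 ± 0.12 (adjusted p = 2.8e-04), and 2 were lower, Got1, the cytosolic aspartate aminotransferase, at -0.99 ± 0.23 and Gpt2 at -0.35 ± 0.10 (adjusted p = 0.015 and 0.028). Of all genes tested, 2.26% were called higher and 1.24% lower on this diet. The fasting response was lower on HF than on LF for 3 partners, where 1.2% of all genes were called lower, and higher for 0, where 1.26% were called higher. All 3 are aminotransferases, and Got2 and Oat, also aminotransferases of the list, were not called. Got1 stood at -1.75 ± 0.46, Gpt2 at -1.14 ± 0.19 and Gpt, the cytosolic alanine aminotransferase, at -0.63 ± 0.18 (adjusted p = 0.039, 4.6e-04 and 0.047). For Gpt2 the fasting difference was 1.66 in WT LF and 1.42 in KO LF, and 0.19 in WT HF and 0.62 in KO HF. In the genotype comparisons 0 partners were called, where at most 0.00865% of all genes were.

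Of 15 regulators, hormone receptors, transcription factors and coactivators, all passed the filter. With fasting 6 rose and 3 fell, beside the same shares of all genes. Creb3l3, a membrane-bound transcription factor of the fasted liver, rose by 0.82 ± 0.09, Cebpb by 0.75 ± 0.26, Prox1 by 0.64 ± 0.14 and the bile acid receptor gene Nr1h4 by 0.43 ± 0.11 (adjusted p = 8.9e-09, 0.042, 0.0014 and 0.0035). Onecut1 was at -1.84 ± 0.39, Atf4 at -0.51 ± 0.11 and Nr3c1, which encodes the glucocorticoid receptor, at -0.42 ± 0.09 (adjusted p = 0.0011, 4.2e-04 and 5.8e-04). With the HF diet 1 fell, the coactivator gene Ppargc1a, at -0.54 ± 0.15 (adjusted p = 0.038), where 1.24% of all genes were called lower. The fasting response of 1 regulator, Nr3c1, was higher on HF, by 0.73 ± 0.18 (adjusted p = 0.018), where 1.26% of all genes were called higher. Its fasting difference was -0.75 in WT LF and -0.82 in KO LF, and 0.13 in WT HF and -0.24 in KO HF.

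**Figure D5:**
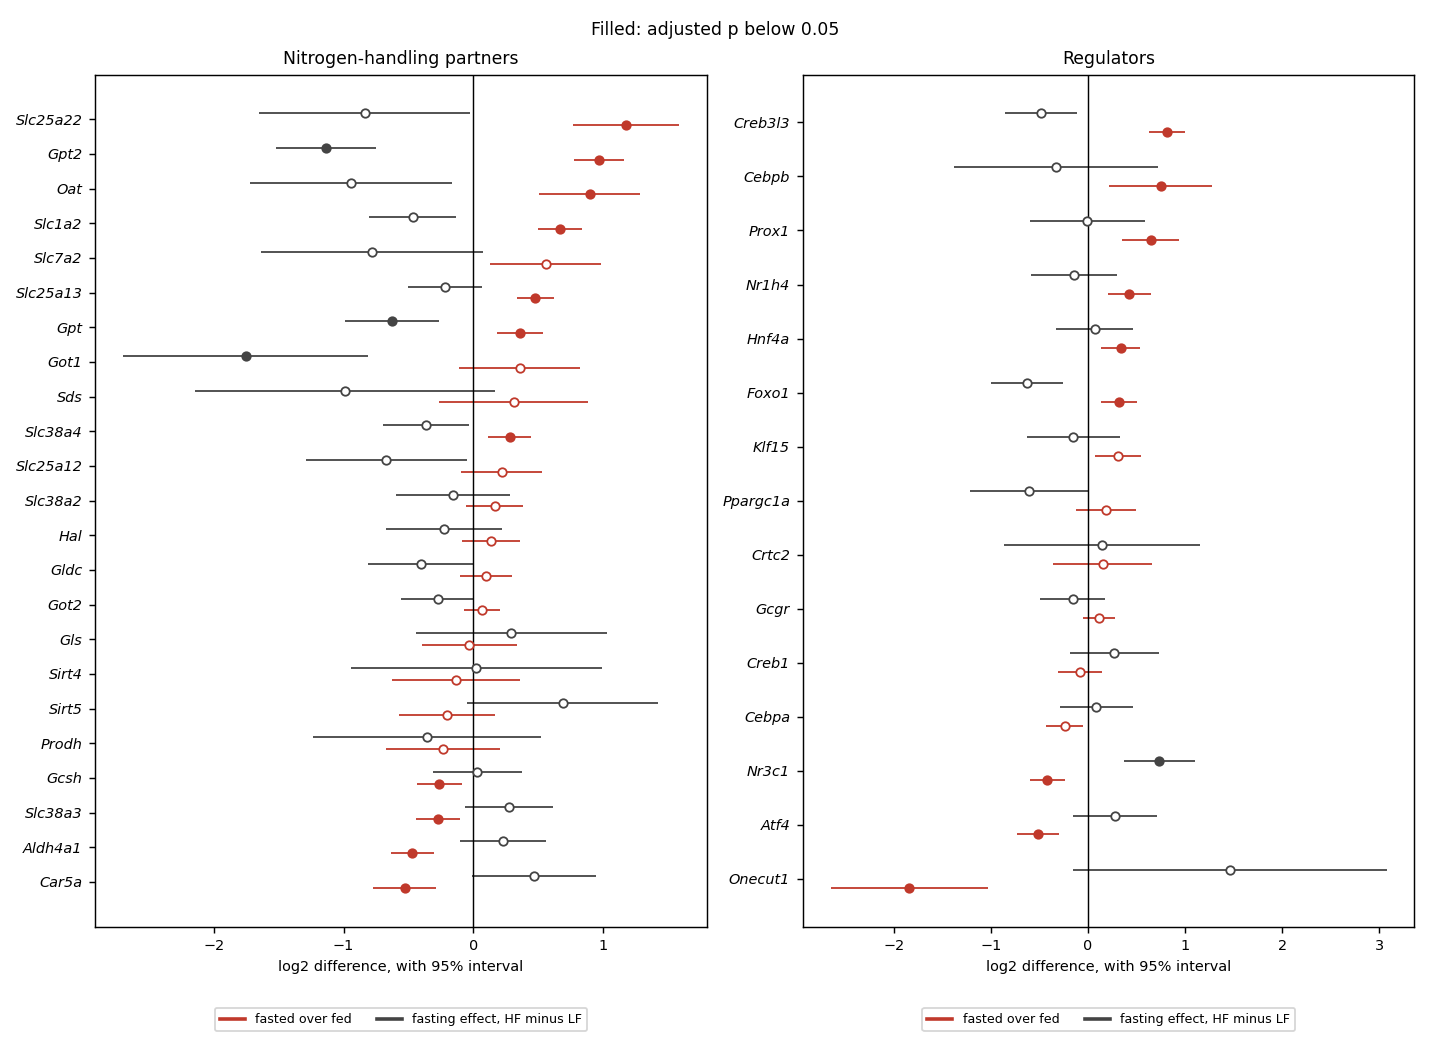
Log2 difference with 95% interval (horizontal axis) for 23 partner genes and 15 regulators: fasted over fed in red, and the fasting difference on HF minus that on LF in dark grey. Filled points passed an adjusted p of 0.05; the filled grey points of the partners are Got1, Gpt2 and Gpt, all below 0.

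The genes whose profile over the 8 group means lay closest to a called member, by the root mean square difference of centred log2 CPM over all genes tested, were Glrx, Fmo2 and Aass for Asl (0.15, 0.16 and 0.17, where Asl itself spanned 1.93), and Atf5, Snhg3 and Amigo2 for Arg1 (0.13, 0.15 and 0.16, of a span of 1.35). They were Ulk2, Psmb10 and Coq10a for Otc (0.067, 0.069 and 0.071, of 0.87), Akr1c13, Aadac and Erp44 for Glud1 (0.074, 0.079 and 0.080, of 1.05), and Gm5424, Dgkq and Efnb2 for Gls2 (0.11, 0.11 and 0.12, of 0.84). Gm5424 is the pseudogene that can share reads with Ass1, so its profile is uncertain as well. These distances describe likeness over 8 groups and were not tested.

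The calls of the members depend on leaving out KO HF fasted replicate 4, the mouse whose library is heart and not liver by its marker genes. With that mouse added, 2 members were called for fasting (Asl higher and Glud1 lower) and 0 for diet or for the difference of the fasting response between diets, and the same counts were found with all 32 mice. The share of all genes called in these fits is not given here, so whether calls fell for the members alone cannot be told. Lane, which the labels give as 7 or 8, held all WT LF fed mice in lane 8, so that the fasting response of WT LF could not be compared within lane 7. The averages within lane 7 leave out fasting in WT LF, diet in WT fed and genotype in LF fed mice, so they cover other conditions than the main averages. Within lane 7, 2 members passed for fasting (Asl and Arg1) and 3 for diet (Asl, Arg1 and Slc25a15), and within lane 8, where WT HF fed, KO LF fasted and KO HF fasted hold 1 mouse each, 4 passed for fasting (Asl, Gls2, Glud1 and Otc), 4 for diet (Asl, Arg1, Cps1 and Otc) and 2 for the difference between diets (Asl and Arg1). With the pancreas-rich mice left out (28 mice, chosen after the marker sums had been seen), the counts were 5 for fasting, 4 for diet and 3 for the difference between diets.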

How the data were processed

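Samples given as liver from 32 male mice were profiled by 3′ RNA sequencing. By its marker genes, that of KO HF fasted replicate 4 is heart and not liver. The authors mapped single reads to GRCm38 with HISAT (0.1.5 in the submitters' processing notes) and counted reads per gene with HTSeq 0.6.1p1 in union mode, and the deposited table holds these raw counts with no normalization. The methods name another Ensembl release than the table's label, and the strand setting is not given in the sources used here. Symbols and positions come from GENCODE M21 (19913 of 20076 identifiers matched, the others holding 0.125% of counts), promoters from RefSeq.

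Groups, lanes and ages were read from the labels, and mice count as separate samples. No pair of mice in a group agreed within counting noise. Genes were kept by edgeR's filterByExpr (11566 genes), scaled by TMM and tested with the robust quasi-likelihood test of edgeR 4.0.16 (R 4.3.3), with Benjamini-Hochberg adjustment over all genes at 0.05. One model with 8 group means over 30 mice gave every contrast, with 95% intervals. Averaged contrasts weight the 4 conditions equally, or, in fits to part of the mice, those of the 4 that these mice cover. The fits were also run on simulated counts with the same setting for the spread in every gene and group. The outcome is not given here, and such counts cannot test groups that differ in spread. Alternatives were DESeq2 1.42.0, limma 3.58.1 (voom), other scaling, filters, mice, lanes, age as a term, the replicate block and leaving out each mouse. The members, partner, regulator and marker lists were chosen with earlier results of these data known. All members are named in the text. Of the partners and regulators called in an averaged comparison, up to 4 per direction with the largest log2 difference are named, and for members called for fasting the 3 genes with the most alike group means. A comparison of the bases of Ass1 and its pseudogene is not reported here.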

Additional observations from a re-analysis of the deposited data

Results flagged for a closer look

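The fasting difference of 3 members differed between the diets by the direct test (fasting difference on HF minus that on LF, edgeR's quasi-likelihood test): -1.60 for Asl, -1.36 for Arg1 and -0.66 for Slc25a15 on the log2 scale. The sum of 12 heart genes was 42739 CPM in KO HF fasted replicate 4, a library that the comparisons do not use, against at most 375 CPM in the 30 mice used. In 60 groups of 4 values, a check for a single sample far from the others by Dixon's criterion marked 0.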

How the results depend on the processing

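Counts of members called are given as x of 10. The share of all genes called under each alternative is not given, so a shift in the members cannot be told from one over all genes. The fasting count stayed at 5 without any single mouse, the diet count was 4 to 5 and the count for the fasting response between diets 2 to 3. Within groups these ranges were 2 to 4 for fasting in WT LF, 0 to 1 in WT HF (1 without KO HF fasted replicate 3) and 4 to 4 in KO LF, and 1 to 4 for diet in WT fasted and 1 to 3 in KO fasted mice. DESeq2 called 1 member for fasting in WT HF and 4 for diet in KO fasted mice, and without a filter on low counts this last count was 1. With all 32 mice the counts were 2 for fasting, 0 for diet, 0 for the response between diets, 1 for fasting in WT LF, 1 in KO LF, 0 for diet in WT fasted and 0 in KO fasted mice. Adding KO HF fasted mouse 4 alone gave 2, 0, 0, 0, 1, 0 and 0 in the same order. Fits to only the mice compared gave 1 for fasting in WT HF, 1 for diet in WT fasted, 1 in KO fed and 0 in KO fasted mice. Lane 7 alone gave 2 for fasting, 3 for diet, 2 for fasting in KO LF and 0 for diet in KO fasted mice, and lane 8 alone 1 for fasting in KO HF and 2 for diet in WT fasted mice. In lane 8 KO HF fasted, KO LF fasted and WT HF fed hold 1 mouse each, which the fit assumes to vary like the other groups, so that the KO HF count there sets 1 fasted mouse against 2 fed ones. The count for diet in KO fasted mice was 1 with age as a term and 1 in the 28 mice without pancreas transcripts. Added after seeing the data, WT mice alone gave 0 for diet and 1 for the response between diets, and KO mice alone 0 and 0. Fewer mice enter these last fits, and the cause of the other shifts was not tested.

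The replicate numbers do not mark shared animals, and same-numbered mice of both genotypes deviated together with r between -0.13 and 0.13 (14 pairs). With the replicate block the counts were 5 for fasting, 5 for diet, 2 for the response between diets (Slc25a15, adjusted p = 0.060) and 3 for diet in WT fasted mice.

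Signs that turned belong to members that had not passed the test concerned. For genotype, all 32 mice gave -0.024 for Otc, -0.059 for Nags and -0.066 for Ass1. KO HF fasted mouse 4 gave -0.073, -0.070 and -0.053 for these. WT LF fed mouse 2 gave 0.016 for Asl and 0.0016 for Cps1, and age -0.0059 for Nags. Lane 7, whose average leaves out the LF fed condition, gave -0.14 for Nags and -0.15 for Ass1. Lane 8 gave 0.15 for Arg1, 0.13 for Asl, 0.15 for Cps1, -0.068 for Otc and 0.092 for Slc25a15, and the 28 mice 0.0043 for Arg1, 0.011 for Asl and 0.015 for Cps1. Leaving out 1 mouse gave -0.081 to 0.036 for Arg1, -0.13 to 0.053 for Asl, -0.082 to 0.056 for Cps1, -0.010 to 0.065 for Otc, -0.090 to 0.0069 for Slc25a15, -0.081 to 0.047 for Gls2, -0.0096 to 0.070 for Nags and -0.046 to 0.19 for Ass1. For fasting, lane 7 gave 0.26 for Ass1, lane 8 -0.19 for Cps1, WT mice alone 0.022 for Slc25a15, 0.017 for Nags and 0.047 for Ass1, and leaving out 1 mouse -0.093 to 0.0040 for Slc25a15. For diet, lane 8 gave -0.038 for Glud1 and WT mice alone 0.035 for Nags. For the response between diets, Glul was -0.14 with all 32 mice, -0.078 with WT LF fed mouse 2 and -0.055 in KO mice alone.

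Scaling by library size alone moved the median of all genes by up to 0.168 on the log2 scale (lower, for fasting in KO LF). Of 1890 values of single members under the alternatives, 1754 kept their direction and side of the threshold, 72 lost a call and 64 turned sign. Interaction fits within lane 7 and the fits of WT LF fed mice there were not run, nor averaged contrasts on only the mice compared. Nags, with 73 to 247 counts, has the thinnest data. The p-values of edgeR set a difference against the spread between mice, which the model estimates over all 8 groups together.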

Other observations

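In 3 of the 8 groups, all WT, the mouse that was lowest for most of the genes Cps1, Ass1, Asl, Arg1, Slc25a15 and Otc was also the youngest by its label. In KO HF fed it shared the lowest age with another mouse, and in the other 4 groups it was not the youngest. In WT LF fed, replicate 1 (age 9, others 11 and 12) was lowest for 6 of 6. In WT LF fasted, replicate 3 (age 7.5, others 11 to 12) was lowest for 5 of 6, all but Otc, and in WT HF fasted, replicate 4 (age 8.5, others 11 to 13.5) for 6 of 6. In KO LF fasted the lowest mouse, for 4 of 6, had the highest age of its group (14, shared with replicate 2). The lowest mouse had an age of 10 in WT HF fed, 10.5 in KO LF fed and 11.5 in KO HF fasted, where the youngest were 9, 10 and 10. Age was not tested against these levels. The mouse was picked from the data as the one most often lowest. In groups this small such matches also arise without a link to age, and their number was not worked out. With age as a term in the model, the counts of members called were 5 for fasting, 5 for diet and 3 for the response between diets, as without it.

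The left-out WT LF fed replicate 2 had 1323 CPM of stellate cell genes, against 378 to 643 CPM in the 30 mice, and 330.2 CPM of bile duct genes, against 49.3 to 97.7 CPM. The left-out KO HF fasted replicate 4 had 1 count of Ass1, 970.1 CPM of Glul and 196 CPM of Glud1.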
